A study of Gallus gallus with 12 samples.

Results

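The comparison described here was between the subepithelial mesenchyme of chick (Gallus gallus) midgut that misexpressed Hoxd13 and the same layer of control midgut, at embryonic day 14. Its members were 8 of the 12 samples of the series, 4 in each group, chosen by their labels, and they supplied 8 of the 36 columns of counts. The first group, called Hoxd13 midgut, was midgut with RCAS-Hoxd13, an avian retrovirus that carries Hoxd13. A further set of 4 samples, called hindgut, came from hindgut with RCAS-mGFP, and the control group, called midgut, was midgut with RCAS-mGFP, the same virus with a fluorescent reporter. All 12 samples thus came from embryos that carried a virus, which was introduced by electroporation at stage 17 of Hamburger and Hamilton into the splanchnic layer of the lateral plate mesoderm at midgut level, and that were kept at 38 °C. RCAS replicates and spreads between dividing cells, and the share of cells that carried it was not measured. Expression was measured by Light-seq, which copies RNA into cDNA on the slide and barcodes hand-drawn regions with light before sequencing. The labels do not say whether the 4 samples of a group are separate embryos, so the p-values measure only the spread between these samples.

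HOX genes encode transcription factors that give positions along the body axis their identity, and those at the posterior end of the clusters, HOXD13 among them, are used in the hindgut. The subepithelial mesenchyme lies between the gut epithelium and the muscle. It secretes the collagens, elastic fibres and other matrix on which the epithelium rests, sends it signals such as WNT, BMP and retinoic acid, and holds cells that can contract. The comparison addresses which genes differ between midgut mesenchyme with and without the misexpressed posterior factor. The groups also differed in sex-linked genes, so a response to Hoxd13 cannot be told apart from a difference in sex.

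Midgut mesenchyme that misexpressed Hoxd13 had more transcript of the gap junction gene GJA5 and of the secreted matrix regulator NOV than control midgut. The contractile genes TAGLN, MYL9, TPM1 and RHOA were higher as well. Of 31 genes of mitosis and DNA replication tested, BUB1 and TOP2A were higher and the cyclin CCND1 lower. Of 12 genes tested in the elastic fibre list, which also held the integrin-binding protein SVEP1, ELN, EFEMP1 and SVEP1 were lower. The median log2 change of that list was -0.05. Also lower in Hoxd13 midgut were the guidance ligand SLIT3, the transcription factor TBX3, the retinoic acid enzyme ALDH1A3 and the myosin light chain MYL12B. W-linked genes were higher and many Z-linked genes lower in the same samples. At an adjusted p under 0.05 (quasi-likelihood test of edgeR, adjusted after Benjamini and Hochberg), 111 of the 4176 genes tested passed (2.66%), of which 55 were higher (1.32%) and 56 lower (1.34%). The unadjusted p was under 0.05 in 702 genes. Of the genes that passed, 26 of those higher and 24 of those lower changed by at least 1 on the log2 scale, which is 2-fold. The median log2 change of all genes tested was 0.01, with quartiles of -0.26 and 0.27, and 51.0% of them had a positive log2 change.

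**Figure D1:**
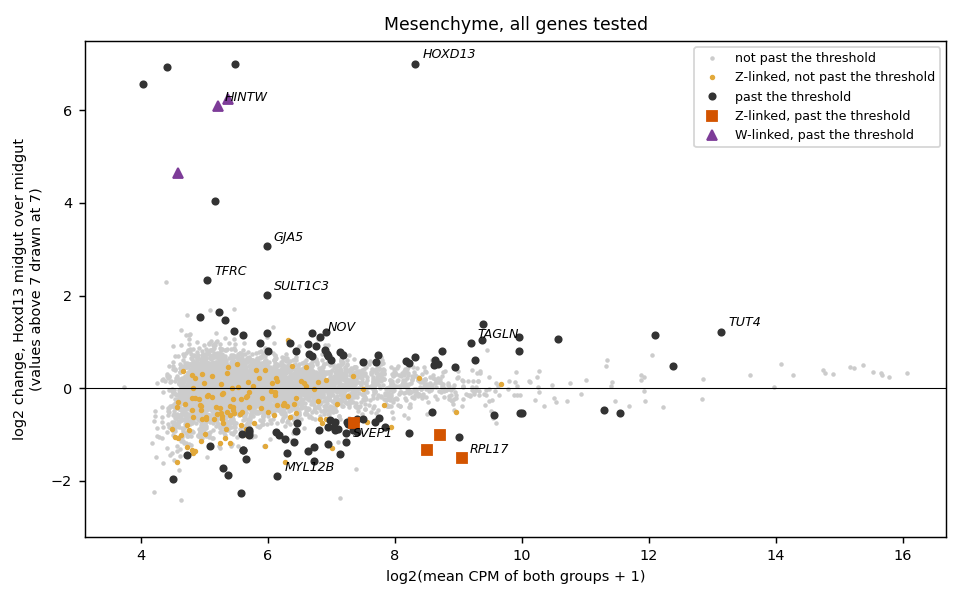
Log2 change between Hoxd13 midgut and midgut mesenchyme (vertical axis, positive where Hoxd13 midgut was higher) against the mean level of both groups in counts per 1000000 (CPM, log2 scale), 1 point per gene tested. Dark points passed the threshold. The W-linked genes lie near the top, and most Z-linked genes lie under the line at 0.

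This count depended on which samples were in the fit, which also set the genes tested and the scaling, and the cause was not tested. The fit reported held all 12 mesenchyme samples, and among them hindgut replicate 1 stood apart from the other hindgut samples, although it belongs to neither group. Without it, 317 genes passed, all 111 among them. With only the 8 samples of the 2 groups in the fit, 365 of 3602 genes passed (10.1%), 148 higher (4.11%) and 217 lower (6.02%), with 106 of the 111 among them. Without each of the 8 samples in turn, 37 to 66 genes passed in fits that kept the hindgut samples and 275 to 352 in fits that did not. Of the 86 genes that passed and had a symbol, 18 passed in every fit of the first kind, 46 in 1 to 7 of them and 22 in none, and 74 passed in every fit of the second kind. The adjusted p values below are from the 12-sample fit unless the 8-sample fit is named. For genes named by the rule given under the processing, calls that other settings of the 12-sample fit ended are named beside the gene, with 1 exception. Adding the replicate number as a block ended 11 calls of genes named by the rule, and these are not marked. The block also ended 19 calls of the 33 genes with a symbol outside the rule.

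HOXD13 itself was abundant in each Hoxd13 midgut sample and not detected in midgut. Hoxd13 midgut replicates 1 to 4 had 213, 202, 155 and 238 counts, hindgut replicates 4, 2, 1 and 8, and each midgut replicate 0. In CPM of the total counts, Hoxd13 midgut reached 579, 546, 475 and 584, with replicate 3 the lowest (546 ± 50.1, SD, n = 4). Set against a floor of 3 counts over the midgut group, about the 95% upper limit that counting error puts on an observed 0, the level was at least 253-fold higher. Other posterior HOX genes, which the hindgut used, were at or near 0 in both midgut groups. HOXA13 had 4 counts in Hoxd13 midgut, 82 in hindgut and 0 in midgut. HOXA11, HOXA10 and HOXB13 had 0 counts in Hoxd13 midgut, 66, 36 and 79 in hindgut and 0 in midgut, and HOXD12, the neighbour of HOXD13 in its cluster, had 0, 9 and 0.

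At midgut level, the HOX genes normally in use are those nearer the anterior end of the clusters, together with the related CDX genes. Of 10 tested, 0 passed in the 12-sample fit (against 2.66% of all genes), 8 had a negative log2 change, and the list's median was -0.39. HOXB7 had 5, 2, 5 and 1 counts in Hoxd13 midgut, 31, 1, 1 and 6 in hindgut and 18, 8, 12 and 11 in midgut, with a log2 change of -1.76 ± 0.51 (SE, edgeR adjusted p = 0.0641). CDX1, an intestinal transcription factor that is also used in epithelium, had 17, 11, 20 and 17 counts in Hoxd13 midgut, against 39, 35, 34 and 44 in midgut (-1.12 ± 0.32, edgeR adjusted p = 0.061). For both genes every Hoxd13 midgut sample lay below every midgut sample. With only the 8 samples in the fit, 2 of 8 genes tested in this list were lower by edgeR (6.02% of all genes were). These were CDX1 (adjusted p = 8.28e-05) and HOXA4 (adjusted p = 0.0362), and for HOXA4 the groups overlapped. HOXC8, the member with the most counts, had 22, 35, 22 and 23 counts in Hoxd13 midgut, against 31, 21, 24 and 42 in midgut, and the groups overlapped (-0.09 ± 0.23).

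Depth was similar between the groups. Each of the 8 mesenchyme columns held 303637 to 427619 counts over 11346 to 12220 genes, so that 3 counts, the floor for a gene at 0, equal 7.02 to 9.88 CPM. The mean total was 367998 ± 33247 in Hoxd13 midgut and 345912 ± 57616 in midgut (SD, n = 4 each, p = 0.486 in a two-sided exact permutation test). The share of mitochondrially encoded counts was 40.7% to 42.7% in Hoxd13 midgut, above the 35.9% to 39.0% of midgut. Sums over lists and chromosomes below are shares of all counts, whereas the CPM of single genes below uses library sizes scaled between samples. The columns, labelled as mesenchyme, held mesenchymal transcripts such as COL1A1 at 5481 to 8257 CPM in Hoxd13 midgut and 7403 to 8348 CPM in midgut. They also held epithelial ones: CDH1, the epithelial cadherin, averaged 771 ± 57.1 CPM in Hoxd13 midgut and 651 ± 109 CPM in midgut, and EPCAM 348 ± 22.3 and 310 ± 43.9 CPM (SD, n = 4 each). These samples hold mixed cells, so fewer cells of a type and less RNA per cell cannot be told apart in any value given here.

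Sex-linked genes separated Hoxd13 midgut from midgut in every sample when summed by chromosome. The W chromosome is carried by female birds only, and its genes summed to 160, 157, 196 and 204 CPM in Hoxd13 midgut, to 43.2, 157, 168 and 196 CPM in hindgut and to 7.02, 3.25, 0 and 0 CPM in midgut. All 3 W-linked genes tested passed and were higher. HNRNPKL had 101 counts in Hoxd13 midgut and 1 in midgut, a ratio of 94.9 with a 95% exact counting interval of 16.7 to 3787. HINTW had 91 and 1 counts (85.5, interval 15.0 to 3415) and SPIN1W 56 and 2 (26.3, interval 6.95 to 223), and these intervals cover counting error only. W-linked genes have near copies on the Z chromosome, so the assignment of reads between the copies is uncertain.

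The Z chromosome, of which male birds carry a double dose, moved the other way. Z-linked genes summed to 9398 to 10463 CPM in Hoxd13 midgut and 14033 to 15840 CPM in midgut, without overlap. The median log2 change of the 130 Z-linked genes tested was -0.39, whereas 28 autosomes with at least 30 genes had medians between -0.07 and 0.11. Of the Z-linked genes 98 had a negative log2 change (75.4%, against 48.6% of 3427 autosomal genes), and in 33 every Hoxd13 midgut sample lay below every midgut sample (25.4%, against 6.16% of autosomal genes and 6.9% of all genes; the groups lay apart the other way in 6.59% of all genes). In the 12-sample fit 4 of the Z-linked genes passed (3.08%, against 2.10% of autosomal genes), RPL17, NREP, RPS6 and LOX, all lower. A further 606 genes tested had no chromosome assigned, and 31 of these passed, so their calls could not be sorted by sex linkage. SVEP1, NOV, TUT4 and IRF2BPL, described below, were among them. With only the 8 samples in the fit, 27 of 107 Z-linked genes were lower (25.2%, against 5.21% of autosomal genes), and 1 was higher, VCAN.

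RPL17, a protein of the large ribosomal subunit, had 274, 243, 272 and 315 CPM in Hoxd13 midgut, 714, 244, 290 and 354 CPM in hindgut and 767, 759, 798 and 821 CPM in midgut (log2 change -1.51 ± 0.22, edgeR adjusted p = 0.000272). NREP, a cytoplasmic protein first studied in regenerating neurons, had 204, 192, 207 and 217 CPM in Hoxd13 midgut, against 565, 543, 472 and 494 CPM in midgut (-1.34 ± 0.20, edgeR adjusted p = 0.000282). Hindgut replicate 1 lay near the midgut samples in both genes, and hindgut replicates 2 to 4 near the Hoxd13 midgut samples. The sex of the embryos and the misexpression of Hoxd13 cannot be told apart between these 2 groups. Leaving out the Z- and W-linked genes before scaling and testing left 99 genes past the threshold. Genes with no chromosome assigned stayed in that fit. Hindgut replicates 2 to 4 had W-linked sums within the range of Hoxd13 midgut or next to it, and hindgut replicate 1 did not (43.2 CPM). Z-linked genes summed to 17570 CPM in hindgut replicate 1 and to 10071, 9784 and 11996 CPM in replicates 2 to 4. The level in hindgut and the log2 change of Hoxd13 midgut over hindgut are given below for the main genes. That log2 change used all 4 hindgut samples, replicate 1 among them, so it is not matched for sex-linked genes.

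**Figure D2:**
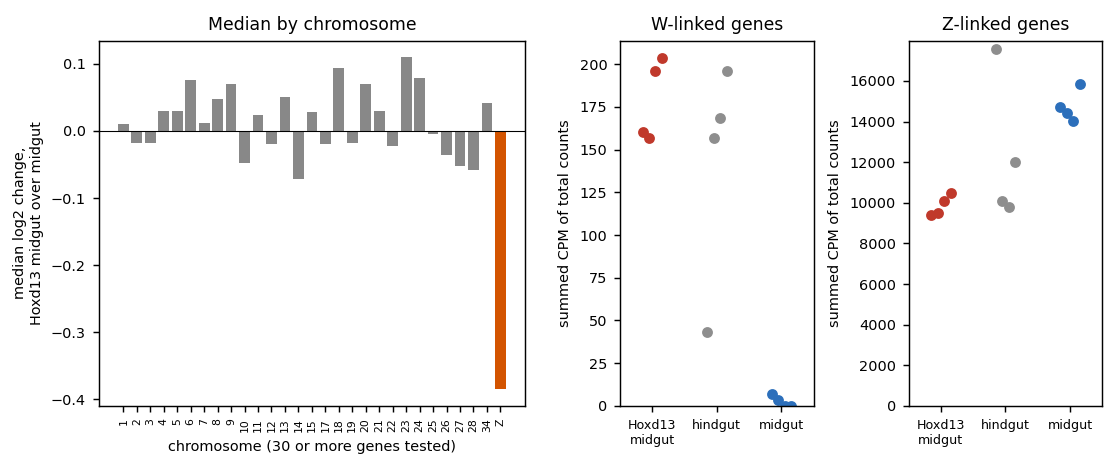
Left, the median log2 change between Hoxd13 midgut and midgut for each chromosome with at least 30 genes tested: chromosome Z stands at -0.39 and all autosomes lie between -0.07 and 0.11. Middle and right, summed CPM of W- and Z-linked genes in each sample of the 3 groups, 1 point per sample: Hoxd13 midgut lies above midgut for W and below it for Z.

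GJA5, which gave the smallest p among the genes with a symbol that rose after HOXD13, and the cadherin PCDH18 rose in Hoxd13 midgut. GJA5 encodes connexin 40, a channel protein of gap junctions that is known from arteries and heart. It had 92.5, 143, 68.9 and 141 CPM in Hoxd13 midgut, 11.9, 16.6, 39.3 and 13.3 CPM in hindgut and 19.2, 13.7, 6.94 and 10.9 CPM in midgut. Every Hoxd13 midgut sample lay above every sample of the other groups, although the Hoxd13 midgut samples themselves fell into a lower and a higher pair. GJA5 rose by 3.07 ± 0.36 on the log2 scale, 8.38-fold (edgeR adjusted p = 1.35e-05), and against hindgut by 2.77 (edgeR adjusted p = 1.8e-05). In the muscle layers of the same samples GJA5 had 22 counts in Hoxd13 midgut and 0 in midgut in the longitudinal layer, and 19 and 0 in the circumferential layer. CDH5, a cadherin of endothelium, a cell type in which GJA5 is also used, had 76.5, 61.7, 65.3 and 89.6 CPM in Hoxd13 midgut, against 55.3, 58.1, 72.9 and 57.3 CPM in midgut, with overlap (0.29 ± 0.23, edgeR adjusted p = 0.551). The endothelial markers summed to 211 to 319 CPM in Hoxd13 midgut and 227 to 269 CPM in midgut, and 0 of 5 tested passed, against 2.66% of all genes. The part of endothelial cells in the rise of GJA5 was not tested.

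PCDH18, a protocadherin of cell adhesion, had 137, 166, 138 and 130 CPM in Hoxd13 midgut, 80.5, 128, 192 and 113 CPM in hindgut and 50.5, 68.3, 52.1 and 79.1 CPM in midgut. It rose by 1.19 ± 0.24 (edgeR adjusted p = 0.00754), and its level did not differ past the threshold between Hoxd13 midgut and hindgut (0.27, edgeR adjusted p = 0.56). Of the 9 genes of gap junctions and cadherins tested, these 2 were higher (1.32% of all genes were) and 0 lower, with a median log2 change of 0.27. Both calls held whichever sample was left out. The list's best known member, the connexin GJA1, did not pass.

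NOV, also called CCN3, is a secreted protein that binds integrins in the matrix. It had 147, 146, 174 and 147 CPM in Hoxd13 midgut, 77.8, 99.8, 123 and 97.5 CPM in hindgut and 57.7, 82.0, 65.9 and 79.1 CPM in midgut, so that Hoxd13 midgut lay above both other groups in each sample and its replicate 3 above its other replicates. NOV rose by 1.11 ± 0.19 (2.16-fold, edgeR adjusted p = 0.00142) and against hindgut by 0.69 (edgeR adjusted p = 0.034). SULT1C3, a cytosolic sulfotransferase, had 92.5, 90.9, 116 and 97.7 CPM in Hoxd13 midgut, 30.2, 66.6, 44.3 and 62.0 CPM in hindgut and 21.6, 20.5, 38.2 and 19.1 CPM in midgut. It rose by 2.01 ± 0.28 (4.03-fold, edgeR adjusted p = 0.000165), and here too the groups did not overlap, with midgut replicate 3 above the other midgut samples. SULT1C3 stood in the list of epithelial markers, of which it was the 1 of 16 that rose in the 12-sample fit (1.32% of all genes did).

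**Figure D3:**
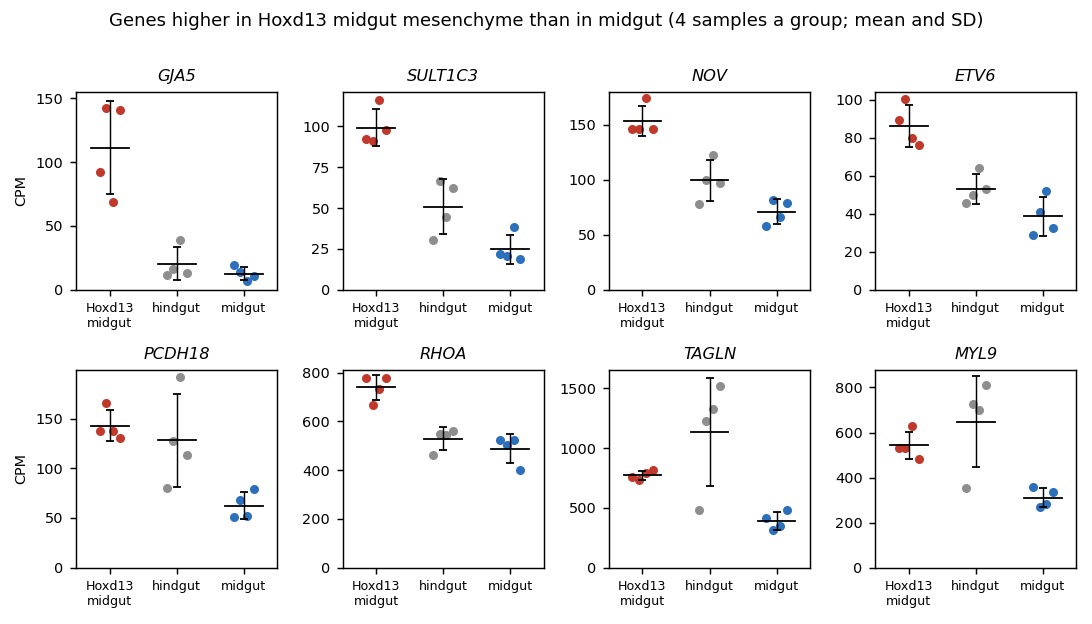
CPM of 8 genes that rose in Hoxd13 midgut mesenchyme, 1 point per sample, with the mean and SD of each group of 4. Hoxd13 midgut lies above midgut in each panel, while hindgut lies below Hoxd13 midgut in every sample for GJA5 and RHOA and above it in 3 of 4 samples for TAGLN and MYL9.

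Of 27 genes of smooth muscle contraction tested, 3 were higher (1.32% of all genes were) and 0 lower. A positive log2 change was found in 24 of them, against 51.0% of all genes, and the list's median was 0.24, against 0.01. TAGLN, which binds actin in smooth muscle cells, had 759, 730, 787 and 817 CPM in Hoxd13 midgut, 480, 1226, 1323 and 1515 CPM in hindgut and 418, 314, 351 and 480 CPM in midgut. The Hoxd13 midgut samples lay close together between midgut and hindgut replicates 2 to 4. MYL9, the regulatory light chain of smooth muscle myosin, had 529, 532, 628 and 483 CPM in Hoxd13 midgut, against 358, 270, 281 and 335 CPM in midgut. TPM1, a tropomyosin, had 440, 454, 497 and 505 CPM in Hoxd13 midgut, against 351, 294, 281 and 319 CPM in midgut. The 3 genes rose by 0.98 ± 0.23, 0.79 ± 0.19 and 0.60 ± 0.16 on the log2 scale (edgeR adjusted p = 0.0265, 0.031 and 0.0431), without overlap between the groups.

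In fits that left out 1 sample and kept hindgut, TAGLN passed only without midgut replicate 4 and MYL9 and TPM1 in none, with edgeR adjusted p up to 0.101 for TAGLN (without midgut replicate 2), 0.118 for MYL9 (without Hoxd13 midgut replicate 3) and 0.142 for TPM1 (without midgut replicate 3). TPM1 also did not pass with DESeq2 (adjusted p = 0.0758) or with upper-quartile factors (0.0513). With only the 8 samples in the fit, the edgeR adjusted p of the 3 was 2.88e-10, 7.76e-07 and 0.000145, and all 3 passed whichever sample was left out. That fit called 7 of 26 genes of this list higher (4.11% of all genes), adding the actins ACTA2 (357 ± 4.89 and 237 ± 44.6 CPM in Hoxd13 midgut and midgut, adjusted p = 0.00162) and ACTA1 (146 ± 16.8 and 87.2 ± 21.3 CPM, adjusted p = 0.00483), the actinin ACTN1 (adjusted p = 0.00274) and the caldesmon CALD1 (adjusted p = 0.0345). It called 1 lower (6.02% of all genes), the Z-linked tropomyosin TPM2 (411 ± 24.5 and 586 ± 114 CPM, adjusted p = 0.000295). MYH11, the myosin of differentiated smooth muscle, averaged 666 ± 70.4 CPM in Hoxd13 midgut and 596 ± 111 CPM in midgut, and DES, the muscle intermediate filament, 418 ± 57.8 and 356 ± 47.5 CPM, and neither passed. As shares of all counts, a scale unlike that of the single genes, the summed CPM of the list overlapped. It was 8309 to 9715 in Hoxd13 midgut, 6959 to 10138 in midgut and 11039 to 19548 in hindgut.

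Among 21 genes of non-muscle actomyosin and the Hippo response, 2 were higher and 1 lower (1.32% and 1.34% of all genes), with a median of 0.16. RHOA, the small GTPase that switches on myosin contraction, had 778, 669, 733 and 779 CPM in Hoxd13 midgut, 461, 549, 546 and 563 CPM in hindgut and 524, 502, 524 and 401 CPM in midgut. It rose by 0.60 ± 0.13 (1.52-fold, edgeR adjusted p = 0.0124), above all samples of both other groups, and against hindgut by 0.49 (edgeR adjusted p = 0.034). CYR61, a matrix protein induced by YAP, had 41.5, 64.9, 61.7 and 57.0 CPM in Hoxd13 midgut, against 14.4, 41.0, 24.3 and 5.45 CPM in midgut, and its lowest Hoxd13 midgut sample barely exceeded the highest midgut sample. Its rise of 1.47 ± 0.40 was just inside the threshold (edgeR adjusted p = 0.04996), and it did not pass after leaving out the mitochondrial or the sex-linked genes, with DESeq2, with either other scaling or with the stricter filter (adjusted p = 0.0516 to 0.0773).

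MYL12B, which encodes a light chain of the myosin used outside muscle, gave the smallest p among the genes with a symbol that fell. It had 31.9, 26.0, 25.4 and 32.6 CPM in Hoxd13 midgut, 122, 177, 162 and 124 CPM in hindgut and 86.6, 144, 104 and 109 CPM in midgut. All 4 Hoxd13 midgut samples lay far under every sample of both other groups. MYL12B was 3.73-fold lower (log2 change -1.90 ± 0.24, edgeR adjusted p = 3.57e-05), and lower than in hindgut by a log2 change of -2.24 (edgeR adjusted p = 3.1e-06). Its near copy MYL12A averaged 47.0 ± 7.17 CPM in Hoxd13 midgut and 52.9 ± 24.2 CPM in midgut (-0.10 ± 0.30, edgeR adjusted p = 0.909). The sources used here do not state how reads shared by such near copies were counted, so the split between MYL12A, MYL12B and MYL9 is uncertain. RHOA passed in 5 of the 8 fits that left out 1 sample and kept hindgut (adjusted p up to 0.0786, without midgut replicate 4), CYR61 only without midgut replicate 2 (up to 0.168, without midgut replicate 4) and MYL12B in all. In the 8-sample fit their edgeR adjusted p was 2.67e-05 for RHOA and 0.00154 for CYR61, and MYL6, a further myosin light chain, was higher as well.

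Of 12 genes tested in the elastic fibre list, which also held SVEP1, 3 were lower (1.34% of all genes were) and 0 higher in the 12-sample fit. The median of the list was -0.05. Because the list was chosen with earlier results of these data known, its count is a description and not a test of elastic fibres. SVEP1, a large matrix protein that binds integrins, had 95.7, 94.1, 97.95 and 78.7 CPM in Hoxd13 midgut, 199, 83.2, 128 and 199 CPM in hindgut and 204, 212, 226 and 180 CPM in midgut. Its symbol was not matched to a chromosome, so whether SVEP1 is sex-linked is unknown here. ELN, elastin itself, had 121, 110, 116 and 103 CPM in Hoxd13 midgut, 190, 88.7, 83.6 and 86.4 CPM in hindgut and 236, 236, 156 and 205 CPM in midgut. EFEMP1, also called fibulin-3, had 57.4, 45.4, 68.9 and 65.2 CPM in Hoxd13 midgut, against 120, 116, 115 and 101 CPM in midgut. None of the 3 overlapped between Hoxd13 midgut and midgut, and for ELN 3 of 4 hindgut samples lay below every Hoxd13 midgut sample. The log2 changes were -1.16 ± 0.21 for SVEP1, -0.89 ± 0.23 for ELN and -0.93 ± 0.21 for EFEMP1 (edgeR adjusted p = 0.00305, 0.0405 and 0.0202).

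SVEP1 kept its call whichever sample was left out. ELN passed only without midgut replicate 3 (adjusted p up to 0.134, without Hoxd13 midgut replicate 4) and EFEMP1 in 4 of 8 such fits (up to 0.0828, without Hoxd13 midgut replicate 2), and in the 8-sample fit both passed by edgeR (adjusted p = 3.55e-05 and 0.000519). With DESeq2 the adjusted p of EFEMP1 was 0.051. The 8-sample fit added FBLN1, fibulin-1, which was higher (161 ± 14.8 CPM in Hoxd13 midgut and 84.3 ± 17.2 CPM in midgut, adjusted p = 0.00022). LTBP1, a latent TGF-beta binding protein with the most counts of the TGF-beta list, did not pass (360 ± 19.9 CPM in Hoxd13 midgut, 622 ± 167 CPM in hindgut and 359 ± 44.9 CPM in midgut), and was lower than in hindgut (edgeR adjusted p = 0.0185).

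Stromal collagens, which carry the tensile load of the tissue, gave no call in the 12-sample fit. Of 10 tested, 0 passed (2.66% of all genes did), and 8 had a negative log2 change (49.0% of all genes did), with a median of -0.14. COL1A1 had 8257, 6813, 6240 and 5481 CPM in Hoxd13 midgut, 6758, 10792, 13451 and 10561 CPM in hindgut and 8116, 8348, 7520 and 7403 CPM in midgut, so that the groups overlapped through Hoxd13 midgut replicate 1 (-0.23 ± 0.18, edgeR adjusted p = 0.538). With only the 8 samples in the fit, 3 of the 10, COL3A1, COL14A1 and COL1A2, were lower (6.02% of all genes were; adjusted p = 0.0013, 0.00722 and 0.0419), with COL3A1 at 2851 ± 214 CPM in Hoxd13 midgut and 3727 ± 311 CPM in midgut. The collagens summed to 14407 to 17661 CPM in Hoxd13 midgut and 18180 to 21585 CPM in midgut. Those sums are shares of all counts, of which the mitochondrial share was higher in Hoxd13 midgut, and its part in the difference was not tested.

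Of 19 matrix glycoproteins and proteoglycans tested, 1 was higher, NOV, and 1 lower (1.32% and 1.34% of all genes), with a median of -0.12. POSTN, periostin, a collagen-binding matrix protein, had 124, 130, 105 and 92.3 CPM in Hoxd13 midgut, 189, 266, 280 and 259 CPM in hindgut and 240, 215, 191 and 123 CPM in midgut. Midgut replicate 4 lay within the range of Hoxd13 midgut, and the call of -0.77 ± 0.20 (edgeR adjusted p = 0.0444) held in 1 of 8 fits that left out a sample, the one without midgut replicate 4 (up to 0.163, without midgut replicate 1). With DESeq2 its adjusted p was 0.051, and in the 8-sample fit by edgeR it was 0.00111. POSTN was also lower in Hoxd13 midgut than in hindgut (-1.11, edgeR adjusted p = 0.0042). The 8-sample fit also called THBS2, a thrombospondin (95.1 ± 19.3 and 37.5 ± 9.42 CPM in Hoxd13 midgut and midgut, adjusted p = 6.07e-05), the large proteoglycan VCAN (106 ± 26.9 and 50.7 ± 12.9 CPM, adjusted p = 0.000653) and the syndecan SDC2 (adjusted p = 0.00491) higher. It called the small proteoglycan DCN (225 ± 53.4 and 335 ± 36.8 CPM, adjusted p = 0.00118), SPARC (adjusted p = 0.00233) and fibronectin, FN1 (adjusted p = 0.031), lower.

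LOX, the enzyme that crosslinks collagen and elastin, was the 1 of 17 genes of crosslinking and turnover that passed in the 12-sample fit (median -0.04, 2.66% of all genes passed). It is Z-linked, and it had 147, 127, 131 and 84.2 CPM in Hoxd13 midgut, 195, 139, 148 and 179 CPM in hindgut and 231, 215, 184 and 188 CPM in midgut (-0.76 ± 0.18, edgeR adjusted p = 0.0265). It passed in 2 of 8 fits that left out a sample (adjusted p up to 0.129, without Hoxd13 midgut replicate 4) and in the 8-sample fit (adjusted p = 0.000494), where 4 of the 17 were lower and 0 higher (6.02% of all genes were lower). The other 3 were the gelatinase MMP2 (adjusted p = 0.00963), PCOLCE, which enhances the trimming of procollagen (adjusted p = 0.0223), and the protease ADAMTS1 (adjusted p = 0.037), by edgeR. Over all genes, 2.66% passed in the 12-sample fit and 10.1% in the 8-sample fit. Of 13 basement membrane genes (median -0.05), 1 passed, the same gene in both fits. This was LAMA5, a laminin chain of the basement membrane under the epithelium. It had 619, 617, 606 and 581 CPM in Hoxd13 midgut, 876, 538, 575 and 540 CPM in hindgut and 820, 964, 899 and 946 CPM in midgut, a clear separation of both midgut groups (-0.58 ± 0.15, edgeR adjusted p = 0.0336). Its call failed in each fit that left out a sample and kept hindgut (up to 0.127, without Hoxd13 midgut replicate 4) and held in the 8-sample fit (adjusted p = 4.37e-06).

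**Figure D4:**
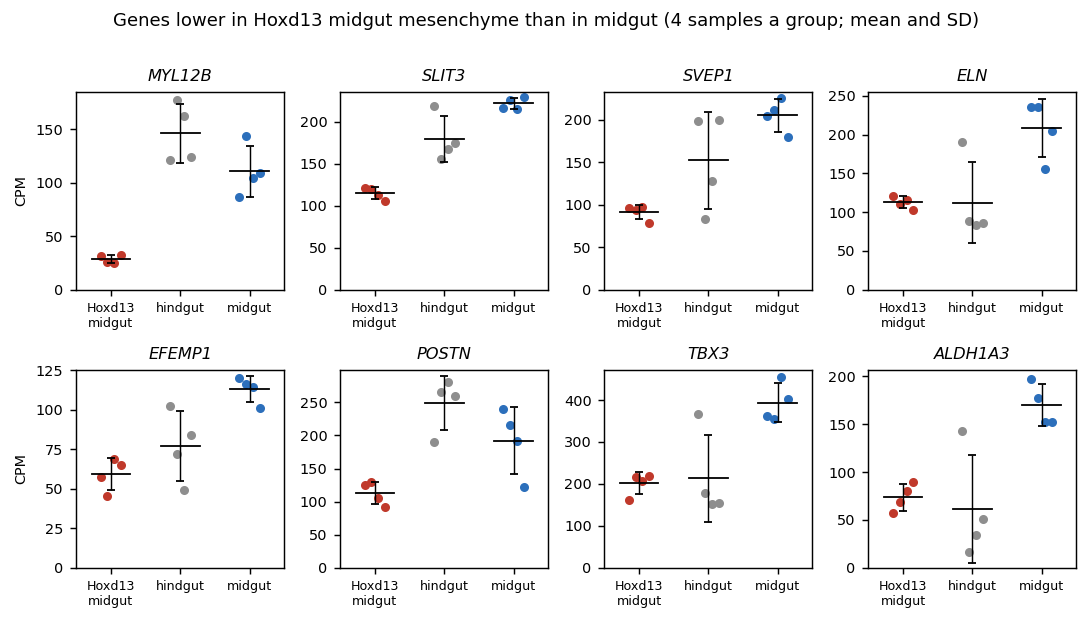
CPM of 8 genes that fell in Hoxd13 midgut mesenchyme, 1 point per sample, with the mean and SD of each group of 4. Hindgut lies above Hoxd13 midgut in every sample for MYL12B, SLIT3 and POSTN, and 3 of 4 hindgut samples lie under the Hoxd13 midgut mean for ELN, TBX3 and ALDH1A3.

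SLIT3, a secreted ligand of Roundabout receptors that guides axons and migrating cells, had 121, 120, 112 and 106 CPM in Hoxd13 midgut, 219, 155, 167 and 175 CPM in hindgut and 216, 226, 215 and 229 CPM in midgut. The spread within both midgut groups was small beside the gap between them. SLIT3 fell by 0.95 ± 0.16 on the log2 scale (1.93-fold, edgeR adjusted p = 0.00125) and was lower than in hindgut by 0.68 (edgeR adjusted p = 0.02), and it passed whichever sample was left out. ISLR2, a leucine-rich membrane protein of neurons that regulates axon extension, had 159, 146, 229 and 128 CPM in Hoxd13 midgut, against 332, 287, 292 and 259 CPM in midgut (-0.84 ± 0.17, edgeR adjusted p = 0.00708, 0.055 without Hoxd13 midgut replicate 4 and 1.12e-05 in the 8-sample fit). Of 26 guidance cues and receptors tested, these 2 were lower (1.34% of all genes were) and 0 higher, 18 had a negative log2 change (49.0% of all genes did), and the median was -0.15. The 8-sample fit added SEMA5A, a semaphorin, as lower (adjusted p = 0.0244), which made 3 of 25, against 6.02% of all genes.

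ALDH1A3, which makes retinoic acid, was the 1 of 9 retinoic acid genes that passed (2.66% of all genes did). It had 57.4, 68.2, 79.8 and 89.6 CPM in Hoxd13 midgut, 143, 16.6, 34.4 and 50.9 CPM in hindgut and 197, 178, 153 and 153 CPM in midgut. Hoxd13 midgut lay under midgut in every sample and above hindgut in comparison with replicates 2 to 4 (-1.20 ± 0.33, 2.3-fold lower, edgeR adjusted p = 0.0495). Its call failed in each fit that left out a sample and kept hindgut (up to 0.149, without Hoxd13 midgut replicate 1) and had an adjusted p of 1.16e-06 in the 8-sample fit. With upper-quartile factors its adjusted p was 0.0513.

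CDON, a co-receptor of Hedgehog, had 147, 153, 185 and 133 CPM in Hoxd13 midgut, 251, 211, 192 and 159 CPM in hindgut and 248, 270, 253 and 243 CPM in midgut (-0.72 ± 0.16, edgeR adjusted p = 0.0194). It was the 1 of 12 Hedgehog genes that passed (2.66% of all genes did). The pathway's direct targets in mesenchyme, PTCH1, GLI1 and HHIP, did not pass. LRP6, a WNT co-receptor, was the 1 of 17 WNT genes that passed (34.9 ± 7.66 CPM in Hoxd13 midgut and 66.8 ± 8.34 CPM in midgut, edgeR adjusted p = 0.0431), and PDGFRB, the receptor of pericytes, the 1 of 8 PDGF and pericyte genes (34.7 ± 9.12 and 66.8 ± 13.2 CPM, edgeR adjusted p = 0.0431). The share over all genes beside both counts was 2.66%. PDGFRB was also lower than in hindgut (-0.96, edgeR adjusted p = 0.031). Of the 8 fits that left out a sample and kept hindgut, CDON passed in 4 (adjusted p up to 0.0939, without Hoxd13 midgut replicate 4), PDGFRB in 1, the one without Hoxd13 midgut replicate 3 (up to 0.147, without Hoxd13 midgut replicate 4), and LRP6 in 0 (up to 0.118, without Hoxd13 midgut replicate 3). LRP6 and PDGFRB also did not pass with DESeq2 (adjusted p = 0.177 and 0.148) or with no filter on low counts (0.0863 and 0.0602). All 3 passed in the 8-sample fit (adjusted p = 0.000138 for CDON, 0.0124 for LRP6 and 0.0102 for PDGFRB), and PDGFRB reached 0.0574 in 1 of the fits that left out 1 of those 8 samples.

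Of the lists for TGF-beta (12 tested), BMP (11), NOTCH (8) and FGF signalling (9), 0 genes passed in the 12-sample fit, against 2.66% of all genes. Their medians were -0.01, 0.11, -0.22 and 0.08. Values of the members with the most counts were as follows. ID2, a target of BMP, averaged 286 ± 21.3 CPM in Hoxd13 midgut and 327 ± 25.7 CPM in midgut, and the receptor NOTCH2 548 ± 56.8 and 530 ± 42.0 CPM. FGFR1 averaged 131 ± 30.0 and 124 ± 13.1 CPM, against 222 ± 63.2 CPM in hindgut. In the 8-sample fit ID3, another target of BMP, was lower (107 ± 12.7 and 170 ± 24.7 CPM, adjusted p = 0.00452), and so was TGIF1, a repressor of the TGF-beta list (32.5 ± 11.7 and 59.7 ± 12.3 CPM, adjusted p = 0.0261), with overlap between the groups.

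Transcription factors of gut mesenchyme gave 1 gene higher and 1 lower of 23 tested (1.32% and 1.34% of all genes), with a median of 0.10. ETV6, a repressor of the ETS family, had 89.3, 101, 79.8 and 76.0 CPM in Hoxd13 midgut, 45.8, 49.9, 63.9 and 53.2 CPM in hindgut and 28.9, 41.0, 52.1 and 32.7 CPM in midgut. It rose by 1.19 ± 0.23 (2.28-fold, edgeR adjusted p = 0.00546), above every sample of the other groups, and passed whichever sample was left out. TBX3, a T-box repressor with roles in limb and gut mesenchyme, had 163, 217, 207 and 220 CPM in Hoxd13 midgut, 367, 177, 152 and 155 CPM in hindgut and 361, 355, 455 and 404 CPM in midgut. Hoxd13 midgut lay with hindgut replicates 2 to 4 and below every midgut sample (-0.96 ± 0.22, edgeR adjusted p = 0.0201). TBX3 passed in 2 of the 8 fits that left out a sample and kept hindgut (up to 0.0851, without Hoxd13 midgut replicate 1), and in the 8-sample fit its adjusted p was 2.29e-08. That fit also called TCF21, a factor of mesenchymal progenitors, higher (94.2 ± 7.91 and 58.6 ± 21.4 CPM, adjusted p = 0.0274) and GATA5, GATA4 and SOX9 lower. GATA5, a zinc-finger factor of gut and heart, averaged 60.0 ± 19.1 CPM in Hoxd13 midgut and 112 ± 17.0 CPM in midgut (adjusted p = 0.00197).

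**Figure D5:**
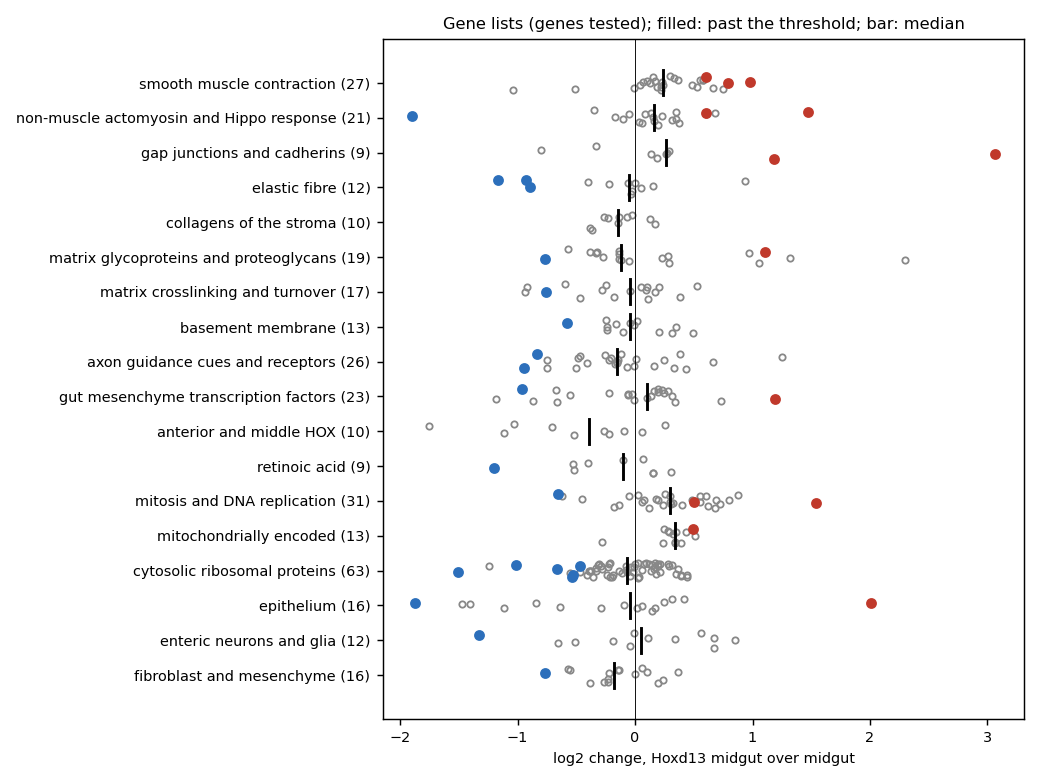
Log2 change between Hoxd13 midgut and midgut for the tested genes of 18 lists, 1 point per gene, positive where Hoxd13 midgut was higher. Filled points passed the threshold and the bar is the list's median: 24 of 27 smooth muscle genes lie right of 0, and the filled points of the elastic fibre and guidance lists lie left of it.

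Of 31 genes of mitosis and DNA replication tested, 2 were higher and 1 lower (1.32% and 1.34% of all genes), with a median of 0.30, against 0.01 for all genes. TOP2A, the topoisomerase of dividing cells, had 485, 409, 453 and 481 CPM in Hoxd13 midgut, 311, 316, 354 and 346 CPM in hindgut and 366, 308, 330 and 284 CPM in midgut (0.51 ± 0.13, edgeR adjusted p = 0.0357). BUB1, a kinase of the spindle checkpoint, had 47.8, 35.7, 39.9 and 54.3 CPM in Hoxd13 midgut, against 21.6, 6.83, 6.94 and 21.8 CPM in midgut (1.54 ± 0.38, edgeR adjusted p = 0.031). Both genes were higher in every Hoxd13 midgut sample than in any midgut or hindgut sample. CCND1, the cyclin that drives entry into the cycle, moved the other way, at 139 ± 23.3 CPM in Hoxd13 midgut and 220 ± 29.5 CPM in midgut (-0.66 ± 0.17, edgeR adjusted p = 0.0376). The growth inhibitor BTG2 was lower as well (87.2 ± 13.5 and 156 ± 23.2 CPM, -0.84 ± 0.21, edgeR adjusted p = 0.031). Each of these 4 passed in 1 of the 8 fits that left out a sample and kept hindgut (up to 0.135 for TOP2A and 0.134 for BUB1, without midgut replicate 4 and Hoxd13 midgut replicate 4, 0.13 for CCND1 without Hoxd13 midgut replicate 1 and 0.114 for BTG2 without Hoxd13 midgut replicate 2). TOP2A also did not pass with DESeq2 (adjusted p = 0.0844), with upper-quartile factors (0.0513) or with no filter (0.186), and CCND1 did not with DESeq2 (0.0661). All 4 passed in the 8-sample fit (adjusted p = 0.00194, 0.00305, 0.00135 and 0.000532), which added PLK1 and ANLN higher and the replication factor MCM2 lower.

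Of 19 immediate early and stress genes, JUND (106 ± 17.4 CPM in Hoxd13 midgut and 54.9 ± 17.6 CPM in midgut) and KLF6 (127 ± 9.84 and 78.1 ± 12.0 CPM) were higher and BTG2 lower (1.32% and 1.34% of all genes), with a median of 0.03. JUND is a subunit of the AP-1 transcription factor and KLF6 a zinc-finger factor, with edgeR adjusted p of 0.0414 and 0.0376 (0.00118 and 0.0098 in the 8-sample fit). Both passed in 1 of the 8 fits that left out a sample and kept hindgut, with adjusted p up to 0.143 for JUND without midgut replicate 1 and 0.128 for KLF6 without Hoxd13 midgut replicate 4. With DESeq2 the adjusted p was 0.0845 for JUND and 0.203 for KLF6, and with no filter 0.144 for KLF6. The heat shock genes and EGR1 did not pass.

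Mitochondrially encoded genes lay mostly above 0, beside the higher mitochondrial share of the counts given above. Of 13 tested 12 had a positive log2 change, with a median of 0.34, and 1 passed in the 12-sample fit (2.66% of all genes did). ND4L, a subunit of respiratory complex I, had 6707, 5963, 6501 and 5661 CPM in Hoxd13 midgut, against 5033, 4145, 4144 and 4366 CPM in midgut (0.49 ± 0.13, edgeR adjusted p = 0.0431). Its call failed in each fit that left out a sample and kept hindgut (up to 0.146, without Hoxd13 midgut replicate 3), and in the 8-sample fit (adjusted p = 0.000276 for ND4L) 8 of 13 genes of the list were higher (4.11% of all genes were) and ND6 lower. With upper-quartile factors, the stricter filter and no filter the adjusted p of ND4L was 0.054, 0.0542 and 0.138. Of the nuclear genes of the respiratory chain 0 of 31 passed in the 12-sample fit, against 2.66% of all genes, and the median was 0.08. The 8-sample fit called 1 of 27 lower, the Z-linked ATP5A1Z (edgeR adjusted p = 0.00418), against 6.02% of all genes, and 0 higher. ATP5B was at 313 ± 31.4 CPM in Hoxd13 midgut and 267 ± 26.3 CPM in midgut, with Hoxd13 midgut replicate 2 under its other replicates.

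Cytosolic ribosomal protein genes gave 6 lower and 0 higher of 63 tested (1.34% of all genes were lower), with a median of -0.07, and 27 with a positive log2 change. RPL17 and RPS6 (277 ± 30.4 CPM in Hoxd13 midgut and 557 ± 38.6 CPM in midgut, -1.01 ± 0.20, edgeR adjusted p = 0.00756) are Z-linked. The other 4 are not: RPS10 (841 ± 46.8 and 1214 ± 78.7 CPM), RPL8 (811 ± 83.5 and 1179 ± 113 CPM), RPS3A (2098 ± 46.9 and 2906 ± 85.2 CPM) and RPS29 (130 ± 22.3 and 207 ± 46.6 CPM). Their log2 changes lay between -0.67 and -0.47 (edgeR adjusted p = 0.031 to 0.0495), and the groups overlapped for RPS29 alone. RPS10, RPL8 and RPS3A failed in each fit that left out a sample and kept hindgut (up to 0.158, for RPL8 without Hoxd13 midgut replicate 1), while RPS29 passed in 2 of 8 (up to 0.164, without midgut replicate 4). In the 8-sample fit their adjusted p was 1.74e-05 for RPS10, 2.67e-05 for RPL8, 5.56e-05 for RPS3A and 0.00283 for RPS29. RPS29 did not pass with DESeq2 (adjusted p = 0.0758) and RPS3A did not with no filter (0.078). The 8-sample fit called 12 of 63 lower (6.02% of all genes) and 1 higher, RPL27 (723 ± 36.8 CPM in Hoxd13 midgut and 564 ± 83.9 CPM in midgut, adjusted p = 0.0204). The list summed to 15507 to 17207 CPM in Hoxd13 midgut and 20341 to 24645 CPM in midgut, without overlap, beside the higher mitochondrial share in Hoxd13 midgut, whose part was not tested. Ribosomal protein genes have near copies elsewhere in the genome, so the assignment of reads to single genes is uncertain.

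The outlined region could hold other cell types, whose markers were read in both fits. Of 16 epithelial markers tested, SULT1C3 was higher and AKR1D1, a steroid reductase, lower (1.32% and 1.34% of all genes), with a median of -0.04. AKR1D1 had 9.57, 26.0, 10.9 and 21.7 CPM in Hoxd13 midgut, 61.3, 77.6, 34.4 and 33.2 CPM in hindgut and 84.2, 44.4, 62.5 and 62.7 CPM in midgut (-1.88 ± 0.36, edgeR adjusted p = 0.00479), with no overlap of Hoxd13 midgut with either group. The 8-sample fit called 1 of 15 higher and 5 lower (4.11% and 6.02% of all genes), among the lower ones ANPEP, a brush border peptidase (581 ± 52.0 and 906 ± 140 CPM, adjusted p = 3.95e-06), CDX1 and MEP1A, whereas EPCAM, CDH1 and VIL1 did not pass. The summed epithelial markers lay at 2733 to 3240 CPM in Hoxd13 midgut and 3059 to 4430 CPM in midgut.

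PODXL, a sialomucin of mesothelium and vessels, had 459, 357, 305 and 212 CPM in Hoxd13 midgut, 639, 299, 320 and 330 CPM in hindgut and 760, 653, 659 and 693 CPM in midgut (-1.06 ± 0.22, edgeR adjusted p = 0.00861, 0.0551 without Hoxd13 midgut replicate 4 and 2.88e-10 in the 8-sample fit). With EFEMP1 it made 2 of 6 mesothelial markers lower (1.34% of all genes were), with a median of -0.60. The 8-sample fit called 3 of the 6 lower (6.02% of all genes), with LRRN4 as the other one (adjusted p = 0.0186), and the list summed to 1482 to 1786 CPM in Hoxd13 midgut and 2112 to 2637 CPM in midgut. The defining markers MSLN and CALB2 were at 0 counts in both groups. The neuronal and glial markers, with a median of 0.05, summed to 622 to 723 CPM in Hoxd13 midgut and 774 to 881 CPM in midgut. Such sums are shares of all counts, whereas the log2 changes use scaled library sizes. Lists with a median near 0 could thus sum lower in Hoxd13 midgut, as the TGF-beta list did (median -0.01, mean 970 CPM against 1149 CPM in midgut). A lower sum alone therefore does not show fewer cells of a type. The part of these cell types in the results above was not tested.

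TFRC, the transferrin receptor that takes up iron, had 47.8, 55.2, 61.7 and 48.9 CPM in Hoxd13 midgut, 13.7, 61.0, 29.5 and 50.9 CPM in hindgut and 9.62, 6.83, 10.4 and 13.6 CPM in midgut (2.34 ± 0.45, 5.05-fold, edgeR adjusted p = 0.00562). It stood in the erythroid list, which also holds globins, and HBA1 averaged 110 ± 13.7 CPM in Hoxd13 midgut and 166 ± 32.1 CPM in midgut and was lower in the 8-sample fit (adjusted p = 0.0124). Of 16 fibroblast and mesenchyme markers, 1 passed in the 12-sample fit, POSTN (2.66% of all genes did, median -0.18). The 8-sample fit called 5 lower and 0 higher (6.02% and 4.11% of all genes). These were POSTN, DCN, COL3A1, COL1A2 and PDGFRA, the PDGF receptor of mesenchyme, which averaged 94.8 ± 10.2 CPM in Hoxd13 midgut and 139 ± 14.6 CPM in midgut, without overlap (adjusted p = 0.0262 in the 8-sample fit). As shares of all counts, the markers summed to 11714 to 14699 CPM in Hoxd13 midgut and 15736 to 18287 CPM in midgut. Lists with a median near 0 could sum lower on that scale too, so this gap is not a measure of mesenchymal cells alone. Its part in the results above was not tested. Interstitial cells of Cajal (ETV1 at 104 ± 24.4 and 94.1 ± 9.52 CPM), immune cells (CD74 at 51.0 ± 11.5 and 49.9 ± 18.2 CPM) and interferon genes (B2M at 46.5 ± 13.1 and 72.9 ± 12.1 CPM) gave 0 calls of 3, 1 and 3 tested, against 2.66% of all genes.

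Several genes of no list were among the 15 with the smallest p in each direction. TUT4, an enzyme that adds uridines to RNA, was listed at 12473, 14996, 11472 and 11288 CPM in Hoxd13 midgut, 5795, 15185, 20041 and 9338 CPM in hindgut and 5017, 6851, 5296 and 4464 CPM in midgut (1.22 ± 0.25, edgeR adjusted p = 0.0105 and 3.59e-14 in the 8-sample fit). It passed in 6 of the 8 fits that left out a sample and kept hindgut (adjusted p up to 0.0631, without midgut replicate 4). In Hoxd13 midgut the level of TUT4 lay above COL1A1 (8257, 6813, 6240 and 5481 CPM). Whether all counts listed as TUT4 came from its transcript was not tested. S100A6, a small calcium-binding protein (139 ± 15.7 CPM in Hoxd13 midgut and 73.8 ± 14.0 CPM in midgut), the transcriptional regulator IRF2BPL (151 ± 21.7 and 85.6 ± 10.1 CPM) and the histone gene HIST1H110 (129 ± 14.0 and 66.5 ± 11.9 CPM) were higher, with edgeR adjusted p between 0.0066 and 0.0153. PCK2, a mitochondrial enzyme that makes phosphoenolpyruvate (96.4 ± 18.0 and 176 ± 17.2 CPM), MT4, a metallothionein (52.1 ± 2.77 and 156 ± 40.2 CPM), and TAPBP, which loads peptides onto class I molecules (25.3 ± 5.10 and 73.8 ± 9.74 CPM), were lower, with edgeR adjusted p between 0.0156 and 0.0177. HIST1H110, which has near copies among the histone genes, held whichever sample was left out. S100A6, IRF2BPL, PCK2, MT4 and TAPBP lost the call in 3 to 5 of the 8 fits that kept hindgut (up to 0.0842, for PCK2 without Hoxd13 midgut replicate 4) and held in the 8-sample fit with any sample left out. The adjusted p in that fit was 0.000509 for S100A6, 0.00113 for IRF2BPL, 0.000148 for PCK2, 2.48e-08 for MT4 and 3.26e-05 for TAPBP.

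A further 33 genes with a symbol that passed, 16 higher and 17 lower, were outside the naming rule, and the examples given here were chosen after their values were seen. Among those higher were TMSB4X, which binds actin monomers (388 ± 32.9 CPM in Hoxd13 midgut and 244 ± 48.5 CPM in midgut, edgeR adjusted p = 0.0165), the secreted protein LRRC17 (166 ± 32.3 and 72.2 ± 27.6 CPM, edgeR adjusted p = 0.0213) and the glycolytic enzyme PGAM1 (edgeR adjusted p = 0.0265, with DESeq2 0.051). Among those lower were ZC3H7B, a zinc finger protein (edgeR adjusted p = 0.0265), the histone methyltransferase ASH1L (edgeR adjusted p = 0.0307), the growth factor receptor EGFR (95.5 ± 10.4 and 154 ± 13.2 CPM, edgeR adjusted p = 0.031, with DESeq2 0.0873), the secreted protease HTRA3 (18.0 ± 9.41 and 57.9 ± 6.85 CPM, edgeR adjusted p = 0.031) and ATIC, an enzyme of purine synthesis (100.3 ± 9.42 and 164 ± 25.5 CPM, edgeR adjusted p = 0.0345, with DESeq2 0.0758). Each of the 33 passed in at most 4 of the 8 fits that left out a sample and kept hindgut, and 19 of them did not pass with DESeq2, which gave no adjusted p for 5. In the 8-sample fit 31 of the 33 were tested, and all of these passed. ADAM12, a metalloprotease (9.06 ± 7.08 and 34.1 ± 14.6 CPM, edgeR adjusted p = 0.0357), was 1 of the others, so its call rests on the 12-sample fit. Genes without a symbol made up 25 of the 111 calls, 15 higher and 10 lower, and 3 of those higher were at 0 in all 4 midgut samples.

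The hindgut shares its midgut controls with the comparison above, so its own values against midgut are set beside those of Hoxd13 midgut without a test of likeness. Hindgut replicates 2 to 4 also differed from midgut in W- and Z-linked sums, in the same direction as Hoxd13 midgut. A change common to both comparisons can therefore not be told apart from a difference in sex. Against midgut, TAGLN was at 0.98 in Hoxd13 midgut and 1.51 in hindgut on the log2 scale, MYL9 at 0.79 and 1.02, and PCDH18 at 1.19 and 0.91. TBX3 was at -0.96 and -0.78, ALDH1A3 at -1.20 and -1.10, ELN at -0.89 and -0.75 and LAMA5 at -0.58 and -0.50. In contrast GJA5 was at 3.07 and 0.30, RHOA at 0.60 and 0.11, MYL12B at -1.90 and 0.35, POSTN at -0.77 and 0.33 and PDGFRB at -0.95 and 0.01. Over all genes, 62 of 4176 passed for hindgut against midgut (1.48%), of which 55 were higher (1.32%) and 7 lower (0.168%). Tested directly, Hoxd13 midgut differed from hindgut in 158 of 4176 genes (3.78%), 64 higher (1.53%) and 94 lower (2.25%), by edgeR's quasi-likelihood test, among them GJA5, RHOA, MYL12B, POSTN and PDGFRB at the adjusted p given above for each. For TAGLN, MYL9, TBX3, ALDH1A3, ELN and LAMA5 the direct difference did not pass (log2 change -0.54, -0.23, -0.18, -0.10, -0.14 and -0.09), which does not show that the levels are alike. In each of these genes hindgut replicate 1 lay nearer to the midgut samples than hindgut replicates 2 to 4 did. It had TBX3 at 367 CPM, ALDH1A3 at 143 CPM, ELN at 190 CPM and LAMA5 at 876 CPM.

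The muscle layers of the same sections were far shallower, with 14305 to 70090 counts per column in these 8 samples. Whether the effect of Hoxd13 differed between mesenchyme and muscle was tested in 614 genes by edgeR with the sample as a block, and 0 passed (0.0%), with 49 at an unadjusted p under 0.05 and a smallest adjusted p of 0.275. Without midgut replicate 1 the count was 2, and without midgut replicate 3 it was 1. Of the main genes, TAGLN had 71 counts in Hoxd13 midgut and 41 in midgut in the longitudinal layer and 294 and 165 in the circumferential layer, at totals that were also higher in Hoxd13 midgut. MYL12B had 1 and 5 counts in the longitudinal layer and 4 and 16 in the circumferential layer, and SVEP1 3 and 16, and 12 and 41. MYL12B, GJA5, NOV and ETV6 had too few counts in muscle for the test.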

How the data were processed

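The authors deposited 1 table of counts, in whole numbers, for 12 samples and 3 layers, and no scaling is visible in its columns. Barcodes assigned each read to a layer, per the labels' series text. The submitters' processing notes list the build GRCg6a and the tools STAR, featureCounts, UMI-tools, DESeq2 and MultiQC, with no role or version. The sources used here do not say if reads or molecules were tallied, so intervals and floors cover counting error only. All 36 value columns matched a label.

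Mesenchyme columns of the 12 samples were fitted with edgeR 4.0.16 in R 4.3.3: TMM scaling, filterByExpr (count at least 10, total at least 15), two-sided quasi-likelihood tests, Benjamini-Hochberg over all genes tested, threshold 0.05. The 3 groups shared 1 estimate of the spread. The layer difference was fitted over 36 columns with the sample as a block. Gene-level CPM used TMM library sizes, whereas HOXD13 in CPM and sums over genes used total counts. Alternatives were DESeq2 1.42.0, other scalings and filters, subsets of samples and each sample left out. On simulated data the fit recovered 64.8% of 88 genes changed 2-fold and 92.0% of 112 changed 4-fold, with 10 false calls among 170, and the layer fit 90.5% of 200 changed 4-fold. Apart from the changed genes, simulated samples of a layer shared 1 mean profile, and all genes had the same spread. No simulated sample stood apart as hindgut replicate 1 did, so these rates may not hold for the deposited counts.

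Members and gene lists were chosen with earlier results of these data known. Named genes were HOXD13, the 15 with the smallest p in each direction among those with a symbol that passed, each list, marker, W- or Z-linked gene that passed, and the member with the most counts of a list without a call. Chromosomes came from the GRCg7b RefSeq table, which matched 11110 of 11801 symbols directly and 189 by a synonym, and served only for that. In a chi-square test of counts no pair of replicates of either midgut group differed by less than sampling noise (chi-square per degree of freedom 1.19 to 2.05), so all were kept. A few results are not reported here.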

Additional observations from a re-analysis of the deposited data

Results flagged for a closer look

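Of 193 groups of 4 values of named genes screened, 7 held a sample whose distance from its nearest neighbour, as a share of the group's range, exceeded Dixon's 95% critical value for 4 samples, which chance alone does in about 1 group of 20. Hoxd13 midgut replicate 3 was the high one for NOV (174 CPM, others 146 to 147), for HADHA, a mitochondrial enzyme of fatty acid oxidation (236 CPM, others 156 to 163), and for RPS29 (163 CPM, others 117 to 124). Hoxd13 midgut replicate 2 was low for ATP5B (266 CPM, others 325 to 334). In midgut, replicate 3 was high for SULT1C3 (38.2 CPM, others 19.1 to 21.6) and CDH5 (72.9 CPM, others 55.3 to 58.1), and replicate 4 for HDAC7 (142 CPM, others 97.2 to 99.1).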

How the results depend on the processing

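The 111 calls became 71 with DESeq2 (64 shared), 172 with no filter on low counts, 365 with only the 8 samples of both groups, 317 without hindgut replicate 1, and 95 to 112 under other scalings, without mitochondrial or sex-linked genes or with a stricter filter. Leaving out 1 of the 8 samples gave 37 to 66 with hindgut in the fit and 275 to 352 without it. The count of the layer difference was 0 to 2 when a sample was left out and 0 under its other alternatives. Same-numbered samples of the groups did not clearly deviate together (r = 0.005, 0.058, -0.017 and 0.019), and the fit reported did not pair them. Correlations of such noisy deviations cannot exclude a batch shared by samples of the same number. With the replicate number as a block 79 genes passed, and 411 in the 8-sample fit with the block. The block with 8 samples and the fits without hindgut that left out a sample were chosen after seeing the data. The genes that reversed were all far from the threshold. The LTBP1 log2 change, 0.0019 in the fit reported, was -0.019 with DESeq2, -0.0088 with DESeq2 size factors, -0.0242 with upper-quartile factors, -0.0148 without mitochondrial genes, -0.0100 without sex-linked genes, -0.0241 with no filter, -0.0196 with the stricter filter, -0.0262 with 8 samples, -0.0091 with the replicate block and -0.0236 with the block and 8 samples. When a sample was left out, it ranged over -0.103 to 0.042. In the same fits the NOTCH2 log2 change ranged over -0.0315 to 0.0928, the FGFR1 log2 change over -0.0513 to 0.214, the HOXC8 log2 change over -0.314 to 0.0757 and the CD74 log2 change over -0.184 to 0.162. The causes were not tested. The median of all genes lay between -0.017 and 0.0063 under other scalings. In the mesenchyme 3 counts equalled about 7 to 10 CPM, but the limit for testing lay higher, because the filter used a minimum count of 10. It left 4176 of 17138 genes for testing. Depth limited most genes in muscle.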
